A study of Mus musculus with 6 samples.

Results

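Oxidative phosphorylation is carried out by 5 protein complexes of the inner mitochondrial membrane. Its genes were taken here as every protein-coding gene whose mouse symbol starts with Nduf, Sdh, Uqcr, Cox4i, Cox5, Cox6, Cox7, Cox8, Atp5 or mt-, and whose mean raw count over the 6 libraries was at least 10. Among the 44678 gene identifiers in the count files, 110 protein-coding genes carried these names and 102 reached the minimum. Of the 102, 89 lie in the nuclear genome and 13 in the mitochondrial genome. The nuclear genes comprised 75 subunits, 12 assembly factors and 2 related proteins. All 102 also passed the filter on low counts and were tested among 13024 genes. The gene closest above the minimum was Atp5s with a mean of 20.5 counts, and the closest below it was Cox6a2 with 8.83 counts.

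The RNA came from CD8a+ leukocytes of the spleen of untreated mice, 3 libraries from wild type (WT) and 3 from miR-144/451 knockout (KO) animals. Both lines were C57BL/6J mice of 8 to 12 weeks, and in the KO line the locus of the 2 neighbouring microRNAs is deleted from the germline, so all cells of the animal lack it. The sample records used here did not say whether each library came from a separate animal, so the p-values measure the spread between these libraries, which may be technical. The libraries held 8143971 to 8876570 deposited counts. A floor of 3 counts in a library equals 0.338 to 0.368 counts per 1000000 deposited counts (CPM). Mir144 and Mir451a were listed at 0 in all 6 libraries, so the deletion could not be checked in these mRNA libraries. Cd8a lay between 481 and 1028 CPM, with the lowest value in KO2. The markers of other spleen cells were also present: the 8 B cell markers summed to 2973 to 5884 CPM and the 8 T cell markers to 2060 to 3733 CPM, and no marker of the 9 lists was at 0 in all libraries.

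The respiratory chain passes electrons from NADH through complex I, or from succinate through complex II, to complex III and then to oxygen at complex IV, and the proton gradient that results drives ATP synthesis at complex V. Complex II is built from nuclear genes alone, whereas the other complexes combine nuclear subunits with a few subunits encoded in mitochondrial DNA, so their assembly draws on both genomes. Resting lymphocytes rely on this pathway for much of their ATP, and mature erythrocytes, the cells in which miR-144 and miR-451 are best known, lose it when they shed their mitochondria.

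The mitochondrially encoded genes were far above the nuclear genes. Per kb of exon, the 13 mitochondrial genes ranged from 42.0 to 5972 CPM with a median of 998 CPM, and the 89 nuclear genes from 0.684 to 177 CPM with a median of 26.8 CPM. mt-Co1, the catalytic core of complex IV, alone held 40.0% to 44.1% of the counts of the 13 genes. mt-Atp8, a small subunit of complex V and the lowest of the 13 at 42.0 CPM per kb, was below the most abundant nuclear genes. Among nuclear genes the highest per kb of exon were Cox7a2l at 177 CPM, Cox6a1 at 177 CPM, Cox8a at 175 CPM, Atp5a1 at 162 CPM, Atp5b at 143 CPM and Cox4i1 at 128 CPM, all of complexes IV and V. The highest of complexes I, II and III were Ndufb11 at 75.9 CPM, Sdha at 50.9 CPM and Uqcrh at 81.5 CPM per kb. The median per kb of the nuclear genes was 19.6 CPM for complex I, 12.4 CPM for complex II, 38.2 CPM for complex III, 44.8 CPM for complex IV and 36.2 CPM for complex V. Assembly factors were low, from 0.684 CPM per kb for Sdhaf3 to 12.9 CPM per kb for Ndufaf8. Lengths here are the union of all annotated exons, and the order of the genes depends on that choice. Per kb of the longest coding transcript the highest nuclear genes were Atp5b at 316 CPM, Cox4i1 at 259 CPM, Cox7a2l at 232 CPM, Atp5e at 221 CPM and Cox6a1 at 217 CPM, again of complexes IV and V.

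**Figure D1:**
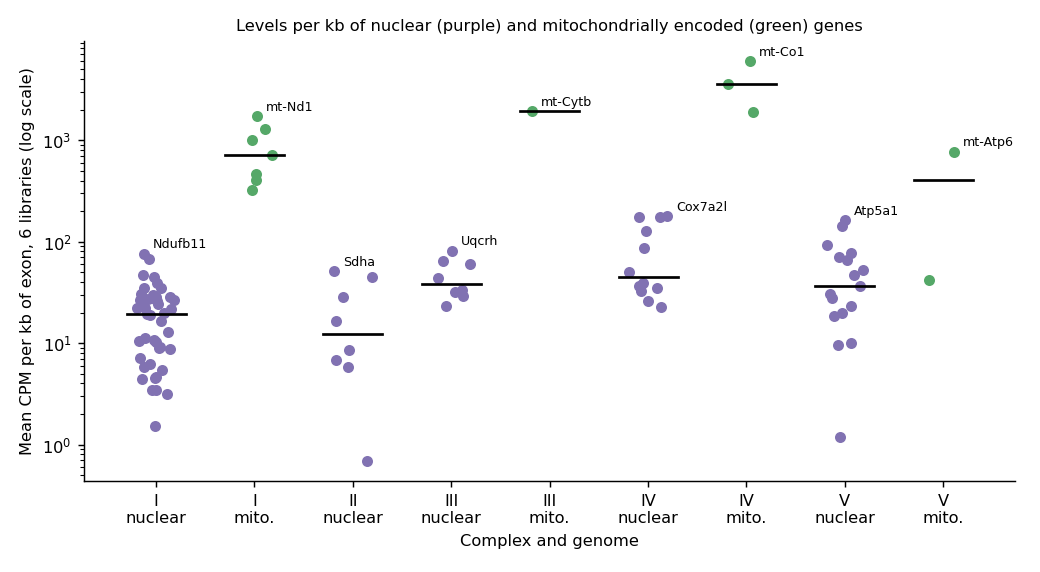
Mean level over the 6 libraries in CPM per kb of exon (log scale) of each of the 102 genes, by complex and genome; points are genes, bars are medians and the highest gene of each column is named. The mitochondrially encoded genes (green) lie above the nuclear genes (purple) of the same complex, except mt-Atp8 at 42.0 CPM per kb.

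Each set of paralogous subunits except the Cox7a and c subunit genes was taken up almost wholly by a single isoform. Cox4i1 held 99.9% of the summed level per kb of Cox4i1 and Cox4i2, Cox6a1 99.1% of its pair with Cox6a2, and Cox6b1 99.1% of its pair with Cox6b2. Cox8a and Cox7b held 100% of their groups, since Cox8b, Cox8c and Cox7b2 were at 0 in every library. Ndufa4, a complex IV subunit despite its name, held 99.8% of its pair with Ndufa4l2. The heart and muscle form Cox7a1 had 4 counts over all libraries, and Cox7a2l held 83.5% and Cox7a2 16.4% of that group. The 3 genes Atp5g1, Atp5g2 and Atp5g3 encode the same mature c subunit of the ATP synthase ring, and they held 6.43%, 62.1% and 31.5% of their group per kb of exon, or 2.75%, 58.4% and 38.9% per kb of the longest coding transcript. The 8 genes under the minimum were all minor isoforms of these sets: Cox6a2 with 53 counts over the 6 libraries, Cox6b2 with 46, Cox4i2 with 5, Cox7a1 with 4, Ndufa4l2 with 3, and Cox7b2, Cox8b and Cox8c with 0, where 0 in a library allows up to 0.368 CPM.

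The counts of 7 mitochondrial genes have to be read together with a nuclear copy. A stretch of mitochondrial DNA inserted in chromosome 1 is annotated as 7 pseudogenes on the minus strand between chr1:24611535 and chr1:24616197 (GRCm38), and 5 of the 7 match their mitochondrial gene without a mismatch over the aligned 294 to 876 bases. The sequences below are shown because they decide which reads can be assigned. The first 60 bases of mt-Co2 (chrM:7013-7072, plus strand) and of its copy Gm28661 (chr1:24615506-24615565, minus strand) were identical. Those of mt-Nd3 (chrM:9459-9518, plus strand) and Gm28438 (chr1:24613060-24613119, minus strand) differed by the single substitution T3C, counted from the first base of the gene. In mt-Co1, 60 bases from the first aligned base (chrM:6381-6440, plus strand) differed from the start of Gm29216 (chr1:24616138-24616197, minus strand) by T1056A, C1057T, A1059G, A1060G, C1062A and A1066T. Capitals mark the bases that differ, and all sequences are from GENCODE transcripts, 5′ to 3′.
mt-Co2: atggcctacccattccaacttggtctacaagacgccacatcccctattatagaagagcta
Gm28661: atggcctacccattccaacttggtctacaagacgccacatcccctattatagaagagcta
mt-Nd3: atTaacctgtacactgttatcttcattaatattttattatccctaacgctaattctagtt
Gm28438: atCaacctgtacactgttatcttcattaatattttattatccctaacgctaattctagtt
mt-Co1: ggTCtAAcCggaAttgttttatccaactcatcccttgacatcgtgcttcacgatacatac
Gm29216: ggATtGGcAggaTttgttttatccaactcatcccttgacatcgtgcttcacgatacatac

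The deposited counts were split between gene and copy differently from library to library. For mt-Co2, a core subunit of complex IV, the gene had 9373 counts in WT1, 28923 in WT2 and 21769 in WT3, against 22175, 19848 and 24628 in KO1, KO2 and KO3. Its copy Gm28661 had 21770 counts in WT1 but 0 to 1976 in the other 5 libraries, that is 69.9% of the pair in WT1 and 0% to 9.06% elsewhere. WT1 thus stood apart for the gene alone but not for the sum, which was 31143, 28923 and 22322 counts in the WT and 22699, 21825 and 24972 in the KO libraries. The coefficient of variation over the 6 libraries fell from 30.1% for mt-Co2 in CPM to 12.5% for the sum, and the log2 fold change of KO against WT went from 0.14 (SE 0.34) to -0.25 (SE 0.12), with an adjusted p of 0.809 for the sum (edgeR).

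Other pairs were split in their own way. Gm10925 held 68.2% to 81.9% of the counts it shared with mt-Atp6, the proton channel subunit of complex V, in every library, and the log2 fold change was -0.34 for the gene and -0.01 for the sum. mt-Atp6 alone was at 527, 808 and 417 CPM in the WT and 451, 430.1 and 521 CPM in the KO libraries, and without WT2, the highest, its log2 fold change was -0.0306. Gm28437 held 32.3% to 63.7% of its pair with mt-Co3. Gm28438 held between 0% in WT1 and 73.6% in KO1 of its pair with mt-Nd3, a membrane subunit of complex I, although a single base separates them over 345 bases, and the coefficient of variation of mt-Nd3 fell from 65.9% to 19.8% when the pair was summed, with a log2 fold change of -0.38 for the gene and 0.05 for the sum. Gm28439 had 1090 counts in WT3, 9.86% of its pair with mt-Nd4, and none elsewhere. Gm10222 was at 0 in all libraries, so mt-Nd4l was the same with and without it, and Gm29216 took at most 1.13% of its pair with mt-Co1. Of the 31-base words of mt-Co1, 968 (63.9%) also occurred in transcripts of other genes, more than the 492 bases of Gm29216 can hold. Other transcripts thus share sequence with mt-Co1, and their counts are not given here. The shared part was 16.8% of words for mt-Nd5 and 13.5% for mt-Nd2. In 5 of the 7 pairs the sum varied less over the 6 libraries than the mitochondrial gene alone. Neighbouring mitochondrial genes also share bases: mt-Atp8 and mt-Atp6 overlap by 43 bases, mt-Nd4l and mt-Nd4 by 7, mt-Atp6 and mt-Co3 by 1, and mt-Nd5 and mt-Nd6, on opposite strands, by 14.

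**Figure D2:**
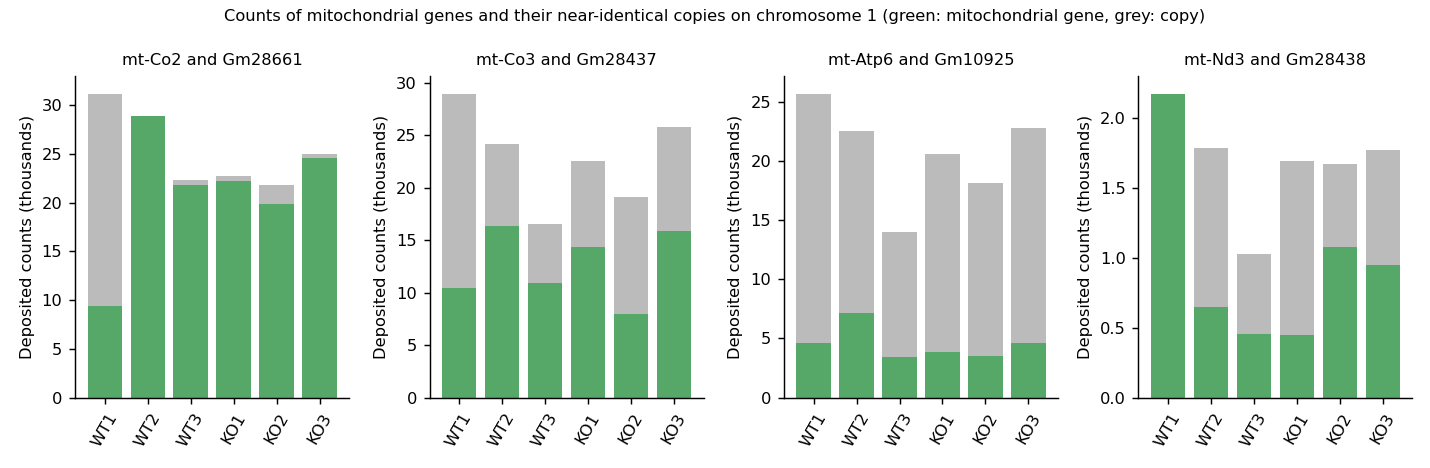
Deposited counts per library (axis in units of 1000) of 4 mitochondrial genes (green) stacked with those of their near-identical copy on chromosome 1 (grey). WT1 has most of its mt-Co2 counts in the copy (69.9%) and none of its mt-Nd3 counts there. For each pair shown, the coefficient of variation in CPM is lower for the sum than for the mitochondrial gene alone.

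The question of the comparison was whether loss of miR-144/451 goes with a different expression of these genes. As a whole, the share of counts held by the mitochondrially encoded genes overlapped between genotypes, whereas the nuclear genes took a slightly smaller share in each KO library. The 13 mitochondrial genes held 2.24%, 2.52% and 1.88% of counts in WT1, WT2 and WT3 and 2.25%, 2.01% and 2.37% in KO1, KO2 and KO3, so that the mean of both genotypes was 2.21%, with an SD of 0.321 over the 3 WT and 0.183 over the 3 KO libraries. The groups overlapped fully, with WT3 the lowest and WT2 the highest. With the chromosome 1 copies added, the shares were 2.95%, 2.79% and 2.10% in the WT and 2.57%, 2.36% and 2.71% in the KO libraries. The means were then 2.62% and 2.54%, and the groups overlapped again, with WT1 the highest. The 89 nuclear genes held 0.607%, 0.596% and 0.615% in the WT and 0.584%, 0.550% and 0.576% in the KO libraries, a mean of 0.606% ± 0.0098 and 0.570% ± 0.0178 (SD, n = 3). All 3 KO libraries were below all 3 WT libraries in this share, and KO2 was the lowest. The 95% Wilson intervals of the shares of the 13 mitochondrial and the 89 nuclear genes, which cover counting error only, were at most 0.0103 percentage points to either side.

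On the log2 scale the ratio of mitochondrial to nuclear counts was 1.89, 2.08 and 1.61 in the WT and 1.95, 1.87 and 2.04 in the KO libraries. The KO mean exceeded the WT mean by 0.10, which is less than the SD of 0.24 among the WT libraries, and the groups overlapped. With the chromosome 1 copies added to the mitochondrial side the difference was 0.06. In bulk samples, fewer cells of a type and less RNA per cell cannot be told apart.

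**Figure D3:**
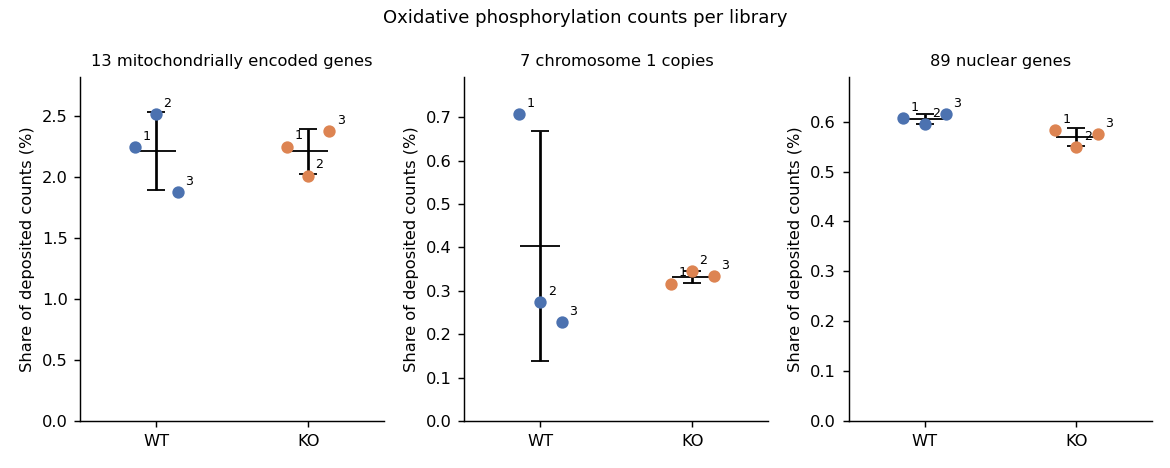
Share of all deposited counts, in percent, held by the 13 mitochondrially encoded genes, the 7 chromosome 1 copies and the 89 nuclear genes; points are libraries numbered by replicate, bars are the mean and SD of 3 libraries. WT and KO overlap for the mitochondrial genes, while the nuclear share is lower in each KO library (0.550% to 0.584%) than in each WT library (0.596% to 0.615%), and WT1 stands apart for the copies (0.707%).

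The libraries also differed in composition, partly across the genotypes. The T cell markers summed to 2818, 3733 and 3578 CPM in the WT and 2595, 2060 and 3586 CPM in the KO libraries, and the B cell markers to 5444, 3383 and 3098 CPM and 5617, 5884 and 2973 CPM, so that in these 2 lists WT1 was nearer to KO1 and KO2, and KO3 nearer to WT2 and WT3. The 8 erythroid markers reached 2741 CPM in KO2, which had the lowest nuclear share, against 244 to 855 CPM in the other 5 libraries. The 8 dendritic cell markers were higher in each KO library (308 to 339 CPM) than in each WT library (273 to 285 CPM). The 8 monocyte and macrophage markers summed to 1126 to 1816 CPM in WT and 1208 to 2235 CPM in KO, the neutrophil markers to 219 to 908 and 351 to 1110 CPM, the NK cell markers to 583 to 678 and 483 to 646 CPM, the 6 plasma cell markers to 440 to 988 and 533 to 977 CPM, and the proliferation markers to 370 to 526 and 420 to 623 CPM. The part of these cell types in the nuclear share was not tested.

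Gene by gene, no oxidative phosphorylation gene passed the test. Over all 13024 genes, 4 had an adjusted p under 0.05 (0.0307%, edgeR quasi-likelihood test with Benjamini-Hochberg adjustment), none of them among the 102, whose lowest adjusted p was 0.494. At an unadjusted p under 0.05, 5 of the 102 were lower in KO (Ndufa13, Cox7a2l, Cox4i1, Ndufb11 and mt-Nd6) and 0 were higher, where 2.11% of all genes were lower and 4.14% higher at this threshold. With DESeq2 4 of the 102 were under this threshold, 3 of them among these 5. Without KO2 only Ndufa13 was under that threshold. Without any other single library 5 to 7 genes were, of which 3 or 4 belonged to the 5 named here, Ndufa13 among them each time.

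The fold changes of the nuclear genes leaned to lower values in KO. Of 89, 72 (80.9%) had a log2 fold change below 0, against 49.4% of all genes tested, and their median was -0.10 against 0.00 for all genes. The number ranged from 67 to 77 over all 13 alternative analyses, and without KO2, the library with the highest erythroid and lowest T cell markers, it was 67 with a median of -0.06. All 3 KO libraries lay below all 3 WT libraries for 12 nuclear genes and above them for 2, whereas 4.79% and 6.71% of all genes tested did so. Of the 13 mitochondrial genes 8 were below 0, with a median of -0.05, and 1 had KO libraries all below WT. This lean of the mitochondrial genes rested on single libraries: the number below 0 ranged from 5 to 12 when a library was left out, and the median was 0.0439 without WT1, 0.0224 without WT2 and 0.0157 without KO2, against -0.20 without WT3. These are counts over genes that share the libraries and the scaling, so they carry no test.

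**Figure D4:**
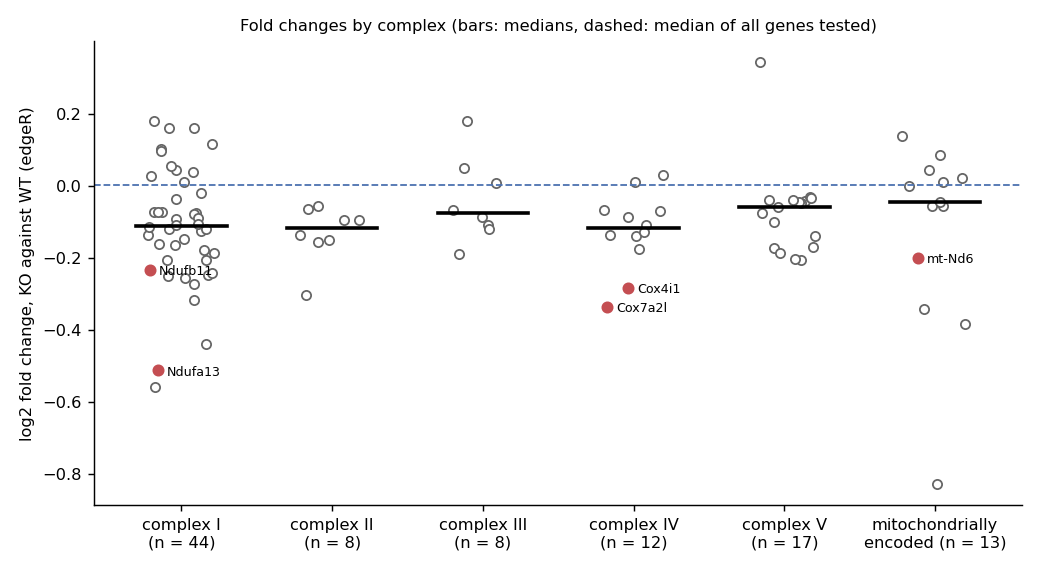
Log2 fold change of KO against WT (edgeR) for the nuclear genes of each complex and for the 13 mitochondrially encoded genes; points are genes, black bars are medians, red points have an unadjusted p under 0.05, and the dashed line is the median of all 13024 genes tested. With all 6 libraries the medians of all 6 groups lie below the dashed line, between -0.12 and -0.05, but that of the mitochondrial genes lies above it without WT1, WT2 or KO2.

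Complex I, the NADH dehydrogenase, had 44 nuclear genes, of which 33 were lower in KO, with a median log2 fold change of -0.11. All 7 nuclear core subunits, which bind NADH, flavin and the iron-sulfur clusters, were lower, with a median of -0.12 and no gene at an unadjusted p under 0.05. The accessory subunits, which surround the core, were mixed, with 19 of 29 lower and a median of -0.08. Of the 8 assembly factors 7 were lower, with a median of -0.26, and all of them were low in level. The summed nuclear CPM of the complex was 1427, 1450 and 1513 in the WT and 1430, 1329 and 1354 in the KO libraries, where WT1 and KO1 crossed narrowly.

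Ndufa13, an accessory subunit also known as GRIM-19 (chr8:69894180-69902558, minus strand, GRCm38), had the lowest p of the 102 genes. It was at 39.4, 44.8 and 45.3 CPM in the WT and 32.8, 32.7 and 26.7 CPM in the KO libraries, without overlap. The log2 fold change was -0.51 (SE 0.12), with an adjusted p of 0.494 (edgeR), and the unadjusted p stayed under 0.05 in all 14 analyses. The exons of Tssk6, a testis kinase gene on the opposite strand, cover 30.0% of those of Ndufa13, and Tssk6 had 36, 38 and 34 counts in the WT libraries against 23, 23 and 31 in KO1, KO2 and KO3. Strandedness is not given in the sources used here, so reads in the overlap cannot be told apart.

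Ndufb11, a membrane arm subunit (chrX:20615326-20617619, minus strand), was at 76.8, 66.0 and 79.2 CPM in WT and 65.6, 66.1 and 59.7 CPM in KO, where WT2 fell among the KO values. Its log2 fold change was -0.23 (SE 0.10, adjusted p 0.786, edgeR), and Rbm10 on the opposite strand covers 12.9% of its exons. Rbm10 was at 103.5, 110.1 and 114.7 CPM in WT and 93.2, 99.7 and 104.1 CPM in KO, above Ndufb11 in each library. Reads in this overlap cannot be told apart either. The unadjusted p of Ndufb11 was under 0.05 in 7 of 14 analyses, the fewest of the 5 genes, and not with DESeq2 or the replicate block. Ndufs5 had the largest positive value of the complex, with 17.7, 17.5 and 17.8 CPM in WT and 19.3, 23.1 and 18.5 CPM in KO, a log2 fold change of 0.18 (SE 0.14, adjusted p 0.85). These groups did not overlap, yet KO2 alone made most of the difference. Ndufaf2, an assembly factor, had the lowest fitted value, -0.56 (SE 0.32, adjusted p 0.816), with 57, 42 and 41 counts in the WT libraries against 38, 37 and 20 in KO1, KO2 and KO3, so KO3 carried much of it. The other complex I genes whose KO libraries were all below the WT libraries were Ndufs1, Ndufs4, Ndufa6, Ndufb10, Ndufc2, Ndufaf1 and Ndufaf8, with log2 fold changes from -0.44 to -0.12, and Ndufb8 was above in all 3, with 0.12.

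**Figure D5:**
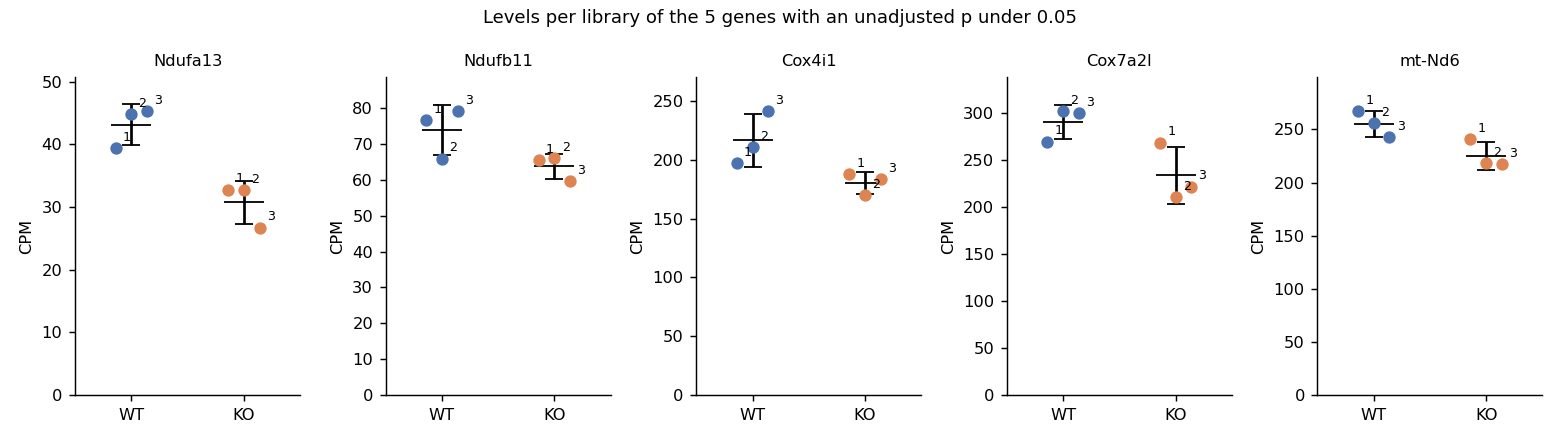
CPM per library of the 5 genes with an unadjusted p under 0.05; points are libraries numbered by replicate, bars are the mean and SD of 3 libraries and axes start at 0. The groups do not overlap for Ndufa13, Cox4i1, Cox7a2l and mt-Nd6, and they overlap for Ndufb11.

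The 8 genes of complex II, the succinate dehydrogenase that also serves the tricarboxylic acid cycle, all had log2 fold changes below 0, between -0.30 and -0.06 with a median of -0.12, and none reached an unadjusted p under 0.05. Sdha, the flavoprotein subunit and the most abundant, was at 201, 212 and 225 CPM in WT and 223, 199.8 and 199.5 CPM in KO, a log2 fold change of -0.06 (SE 0.09, adjusted p 0.913, edgeR). The groups overlapped, with KO1 close to the highest WT library. Sdhaf1, an assembly factor for the iron-sulfur subunit, had the lowest value at -0.30 (SE 0.17, adjusted p 0.816), on 16.8, 21.1 and 17.7 CPM in WT and 17.3, 16.0 and 12.4 CPM in KO, with overlap, and 69.6% of its exons are covered by E130208F15Rik on the opposite strand.

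In complex III, the cytochrome bc1 complex, 5 of 8 nuclear genes were lower, with a median of -0.08. Their sum was 582, 567 and 567 CPM in the WT and 566, 513 and 562 CPM in the KO libraries, without overlap, although KO1 almost met WT2. Uqcrfs1, the Rieske iron-sulfur protein, had the largest fall in fitted value, with 94.0, 91.8 and 92.1 CPM in WT and 76.5, 78.8 and 91.6 CPM in KO, a log2 fold change of -0.19 (SE 0.09, adjusted p 0.816, edgeR). The groups did not overlap, but KO3 almost reached the WT libraries. Uqcr11 had the highest value at 0.18 (SE 0.17), with overlapping groups between 16.0 and 22.2 CPM. Uqcrh, the hinge protein and the most abundant per kb, was at 93.3 to 118 CPM in WT and 86.4 to 103 CPM in KO. The mitochondrially encoded mt-Cytb was at 2380.2, 2389 and 1729 CPM in WT and 2286, 2133 and 2261 CPM in KO, so the KO libraries lay inside the WT range.

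Complex IV, the cytochrome c oxidase, had a summed nuclear level that did not overlap between genotypes. The 12 nuclear genes summed to 1202, 1161 and 1215 CPM in the WT and 1104, 1042 and 1054 CPM in the KO libraries, and 10 of 12 were lower, with a median log2 fold change of -0.12. Much of the difference in the sum lay in Cox7a2l and Cox4i1. Cox4i1, the regulatory subunit (chr8:120668222-120674207, plus strand), was at 197, 211 and 241 CPM in WT and 188, 169.8 and 184 CPM in KO, a log2 fold change of -0.28 (SE 0.10, adjusted p 0.751, edgeR), and Emc8 on the opposite strand covers 9.94% of its exons. Cox7a2l (chr17:83501918-83517330, minus strand), a COX7A-related protein studied for its part in respiratory supercomplexes, was at 269.9, 302 and 300.2 CPM in WT and 269, 211 and 222 CPM in KO, with a log2 fold change of -0.33 (SE 0.11, adjusted p 0.716). The unadjusted p of each was under 0.05 in 12 of 14 analyses. Neither gene overlapped between genotypes, although WT1 and KO1 almost met for Cox7a2l. Its pseudogene Gm6969 took 69.0 counts in KO3 and 0 in the other libraries, beside 1951 counts of Cox7a2l in KO3.

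The other nuclear complex IV genes differed less between genotypes. Cox7c had the largest fall of them, with a log2 fold change of -0.18 (SE 0.11, adjusted p 0.818, edgeR). For 3 libraries each (mean ± SD), Cox6a1 was at 126 ± 24.7 CPM in WT against 122 ± 10.4 CPM in KO, Cox8a at 110.4 ± 11.8 and 106.7 ± 1.33 CPM, Cox6b1 at 63.4 ± 7.87 and 58.3 ± 0.398 CPM, and Ndufa4 at 52.9 ± 5.27 and 48.7 ± 4.90 CPM. Cox7b had the highest value of the complex with a log2 fold change of 0.03 (SE 0.12), and Cox7a2 followed with 0.01 (SE 0.14). Of the mitochondrially encoded core, mt-Co1 was at 9905, 10069 and 7970 CPM in WT and 9200, 8451 and 9761 CPM in KO (log2 fold change -0.05, SE 0.13), and mt-Co3 at 1193, 1841 and 1335 CPM and 1681, 972 and 1807 CPM (0.01, SE 0.25). Both pairs of groups overlapped. For mt-Co2 the sum with its copy had a log2 fold change of -0.25 (SE 0.12), as given above.

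Complex V, the ATP synthase, had 16 of 17 nuclear genes lower in KO, but by little, with a median of -0.06 and no gene at an unadjusted p under 0.05 or without overlap. The sum was 2400.0, 2318 and 2390 CPM in the WT and 2274, 2185 and 2356 CPM in the KO libraries, and KO3 lay above WT2. Atp5a1, the alpha subunit of the catalytic head, was at 496, 494 and 548 CPM in WT and 514, 482 and 517 CPM in KO, a log2 fold change of -0.04 (SE 0.09). Atp5h, of the peripheral stalk, had the lowest value at -0.21 (SE 0.11, adjusted p 0.816, edgeR), at 136, 103 and 126 CPM in WT and 108, 105 and 107 CPM in KO. The single gene above 0 was Atp5s, a related protein outside the enzyme, at 0.34 (SE 0.31) on 16 to 24 counts per library. The c subunit genes Atp5g1, Atp5g2 and Atp5g3 had log2 fold changes of -0.05, -0.03 and -0.04 (SE 0.12, 0.10 and 0.11).

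Of the remaining mitochondrial genes, mt-Nd6, the complex I subunit read from the opposite strand of the mitochondrial genome to the other 12 (chrM:13552-14070, minus strand), was the gene with an unadjusted p under 0.05. It was at 267, 256 and 243 CPM in WT and 241, 218 and 218 CPM in KO, without overlap but with WT3 and KO1 only a few CPM apart, and its log2 fold change was -0.20 (SE 0.08, adjusted p 0.786, edgeR). None of the 7 copies on chromosome 1 corresponds to it. The unadjusted p was under 0.05 in 8 of 14 analyses. mt-Nd5, which overlaps it, was at 1358, 1488 and 976 CPM in WT and 1409, 1204 and 1377 CPM in KO, with a log2 fold change of 0.04 (SE 0.16).

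mt-Nd1, mt-Nd2 and mt-Nd4, membrane subunits of complex I, were all lowest in WT3. mt-Nd1 was at 1912, 1756 and 1355 CPM in WT and 1668, 1473 and 1753 CPM in KO (log2 fold change -0.06, SE 0.14). mt-Nd2 was at 1268, 1124 and 699.5 CPM and 1046, 930.1 and 1150.0 CPM (0.00, SE 0.21), and mt-Nd4 at 2169, 1970.0 and 1223 CPM and 1733, 1631 and 1862 CPM (-0.06, SE 0.20). mt-Nd4l was at 123, 137 and 89.4 CPM in WT and 128, 137 and 112 CPM in KO (0.08, SE 0.16). mt-Atp8 had the largest fitted difference, -0.83 (SE 0.38, adjusted p 0.797), with 158, 59 and 66 counts in the WT libraries against 45, 53 and 61 in KO1, KO2 and KO3, so WT1 made most of it. The unadjusted p of mt-Atp8 was under 0.05 in 4 of 14 analyses, among them DESeq2, where that of mt-Nd6 was not. The spread among the mitochondrial genes was wider in WT than in KO, with a median coefficient of variation of 23.4% against 8.81%, while the nuclear genes had 10.01% and 8.29%.

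Genes around the pathway were taken from lists beyond the name rule, and none passed the adjusted threshold. Over all genes tested, 49.4% were below 0, and 2.11% were lower and 4.14% higher at an unadjusted p under 0.05. The 78 mitochondrial ribosomal proteins, which translate the 13 mitochondrial mRNAs, had 62 log2 fold changes below 0 and a median of -0.11, with 3 lower and 0 higher at an unadjusted p under 0.05. The 2 lowest of these were Mrpl15 (-0.36, SE 0.12, adjusted p 0.716, edgeR) and Mrpl44 (-0.31, SE 0.12, adjusted p 0.786). Of 38 further assembly factors tested, 27 were below 0, and 1 reached an unadjusted p under 0.05. That gene was Lyrm7, an assembly factor for the Rieske protein of complex III. It had 57, 65 and 44 counts in the WT libraries against 13, 27 and 21 in KO1, KO2 and KO3, a log2 fold change of -1.43 (SE 0.33, adjusted p 0.494). Its groups were clearly apart, and the value was larger than that of any of the 102 genes.

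Among 28 genes of mitochondrial DNA expression and maintenance, 21 were below 0, and Mgme1, a mitochondrial exonuclease, was higher with 7.17, 7.44 and 7.74 CPM in WT and 9.13, 10.3 and 11.4 CPM in KO (0.45, SE 0.18, adjusted p 0.786, edgeR). Of 11 tested regulators 7 were below 0. Ppargc1a, the coactivator PGC-1 alpha that drives mitochondrial biogenesis, had 1, 3 and 1 counts in the WT libraries against 15, 13 and 11 in KO1, KO2 and KO3, with an adjusted p of 0.360, and the WT values are at or under the floor, so no fold is given. The electron carriers and other chain enzymes had 14 of 21 below 0, the tricarboxylic acid cycle 14 of 18, and neither had a gene at an unadjusted p under 0.05. In glycolysis 12 of 19 were below 0, with Hk1 at -0.22 (SE 0.09, adjusted p 0.786) and Hk3, a hexokinase of myeloid cells, at 0.57 (SE 0.19, adjusted p 0.729). Hk3 was at 41.0 and 40.2 CPM in KO1 and KO2 but at 24.2 CPM in KO3, inside the WT range of 22.1 to 24.4 CPM. The summed monocyte and macrophage markers were 1989, 2235 and 1208 CPM in KO1, KO2 and KO3 and 1816, 1126 and 1206 CPM in WT1, WT2 and WT3, where WT1 had the lowest Hk3, and their part in the result was not tested.

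Nuclear respiratory genes are known to share promoter elements for the factors NRF1, NRF2 (an ETS family factor, GABP) and YY1. RefSeq promoters (GRCm38.p6, 250 bases before to 50 after the start) were matched for 74 of the 89 nuclear genes, 79 promoters in all, and searched on both strands for GCGCATGC (NRF1), CCGGAAGT (ETS) and AAGATGGC (YY1). The NRF1 letters were in 12 promoters (15.2%), against 2.71% of 32851 promoters in the table and 5.24% of 12190 promoters of genes tested. The YY1 letters were in 10 (12.7%), against 2.75% and 4.50%, and the ETS letters in 5 (6.33%), against 3.89% and 8.24%. Any of the 3 was in 26 (32.9%), against 8.83% and 16.7%. Among the promoters with NRF1 letters were those of Cox6a1, Atp5g2, Sdhb and Uqcrc1. YY1 letters were in those of Ndufs4 and Ndufs7, and in a promoter of Atp5j, which had another without them. Of the 4 nuclear genes with an unadjusted p under 0.05, Cox7a2l, Ndufa13 and Ndufb11 had none of these letters in the window, and Cox4i1 was not among the 74 genes matched. A match is a description and not a binding site.

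The deleted microRNAs were matched to the genes through their seeds, since loss of a microRNA can raise its direct targets. The mature sequences (RefSeq, GRCm38.p6) are shown because their seeds, bases 2 to 8 in capitals, define the sites searched for, and no pair of them shares a seed.
mmu-miR-144-5p: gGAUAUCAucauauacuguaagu
mmu-miR-144-3p: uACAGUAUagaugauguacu
mmu-miR-451a: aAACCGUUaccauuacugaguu
Few of the genes had a match in an annotated 3′-UTR. For miR-144-3p these were Atp5a1 and Atp5g2, 2.25% of 89 genes against 15.4% of 11558 genes tested, and for miR-144-5p Ndufb8 and Uqcrfs1, again 2.25% against 7.22%. miR-451a had 0 matches against 2.58%. The 3′-UTRs of these genes are short, with a median of the longest annotated form of 304 bases against 1369.5 for all genes. Of the 4 genes with a match, Ndufb8 was at 32.5, 30.9 and 31.7 CPM in WT and 33.8, 36.6 and 34.1 CPM in KO (log2 fold change 0.12, SE 0.09, adjusted p 0.864, edgeR), and the other 3 had values of -0.19 to -0.03. None of the 4 passed the test.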

How the data were processed

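The authors deposited 1 table per library of expected counts per gene, which need not be whole, made against GRCm38 (mm10) per the submitters' processing notes. The aligner, counter, their settings and strandedness are not given in the sources used here. How multiply mapping reads were shared between near-identical genes can affect the counts of mitochondrial genes with such copies, which was not tested. Libraries were made from total RNA with a SMARTER mRNA kit. The study's methods state no test for the sequencing.

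Expected counts were rounded and tested with edgeR 4.0.16 (R 4.3.3; TMM factors, filterByExpr at min.count 10 and min.total.count 15, quasi-likelihood test, Benjamini-Hochberg over 13024 genes, threshold 0.05) on all 6 libraries with genotype as the only term. CPM is the deposited count per 1000000 of the library total. TMM factors were 0.989 to 1.01. Symbols, exons and coordinates came from GENCODE M21, which held 44121 of the 44678 identifiers. Words of 31 bases shared with other genes were counted. No 2 libraries of a group agreed within sampling noise (chi-square per degree of freedom 6.31 to 23.4 over 6 pairs). Scripts were tested on simulated data. Alternatives were DESeq2 1.42.0, other scaling and filters, a replicate block, leaving out each library and, chosen after seeing the data, summing the chromosome 1 copies with their genes.

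Genes named are all mitochondrially encoded genes; per complex the nuclear gene highest per kb, the largest rise and fall (mean CPM of at least 1) and any with an unadjusted p under 0.05; isoform groups; and up to 2 rises and 2 falls per list under that p. Others (Atp5b, Atp5e, Cox7c, Sdhaf3, Ndufaf8, genes without overlap, with a motif or with a seed match) were chosen after their values were seen. The genes and lists were chosen with earlier results of these data known.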

Additional observations from a re-analysis of the deposited data

How the results depend on the processing

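At an adjusted p under 0.05, 4 genes were called, and 58 with DESeq2, 12 without a filter on low counts, 9 with the replicate block and 2 to 94 when a library was left out, the 94 without KO replicate 3; none of these settings brought in an oxidative phosphorylation gene. The number of these genes with an unadjusted p under 0.05 was 5, and it was 3 with the replicate block (Ndufa13, Cox4i1 and Cox7a2l), 7 with upper-quartile factors and 1 to 7 when a library was left out, the 1 without KO replicate 2. The deviations of same-numbered WT and KO libraries from their group means had correlations of -0.20 to 0.11. Those of differently numbered libraries ran from -0.26 to 0.29. With 3 libraries a group these values cannot decide whether the numbers pair the libraries. The difference in the log2 ratio of mitochondrial to nuclear counts, 0.10, was 0.06 to 0.12 over the alternatives that kept all libraries and -0.03 to 0.21 when a library was left out, negative without WT replicate 3.

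Of 43 genes named, 26 kept their direction in all 13 alternatives. Outside leaving out a library, 5 reversed: mt-Nd2 (0.0025 with mitochondrial genes out of library sizes, 0.0331 with the replicate block), mt-Co3 (-0.0069 without a filter, -0.0079 with the replicate block, -0.0439 with the copies summed), mt-Co2 (-0.25) and mt-Nd3 (0.0508) with the copies summed, and Cox7a2 (-0.0081 without a filter), all log2 fold changes. When a library was left out, 17 reversed, with ranges of -0.16 to 0.0149 for mt-Co1, -0.21 to 0.46 for mt-Co2, -0.18 to 0.24 for mt-Co3, -0.13 to 0.10 for mt-Cytb, -0.20 to 0.0439 for mt-Nd1, -0.23 to 0.17 for mt-Nd2, -0.75 to 0.57 for mt-Nd3, -0.28 to 0.10 for mt-Nd4, -0.0896 to 0.22 for mt-Nd4l, -0.13 to 0.17 for mt-Nd5, -0.16 to 0.0435 for Atp5g1, -0.14 to 0.0273 for Atp5g2, -0.14 to 0.0214 for Atp5g3, -0.15 to 0.0911 for Cox6a1, -0.11 to 0.10 for Cox7a2, -0.0621 to 0.16 for Cox7b and -0.14 to 0.0155 for Cox8a. Hk3 reached an adjusted p of 0.0408 (edgeR) without KO replicate 3. The causes were not tested. With 3 libraries a genotype, an exact permutation test of a single value could not go below 0.1.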
